A study of Mus musculus with 12 samples.

Results

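The mouse Schlafen genes Slfn1, Slfn2, Slfn3, Slfn4, Slfn5, Slfn8 and Slfn9 were followed across 4 genotypes of peritoneal macrophages. They were taken by gene name from a table of 15721 genes, and all 7 names were found, each in 1 row. The table holds strand-specific RNA sequencing of macrophages that were sorted by FACS (fluorescence-activated cell sorting) from C57BL/6 mice, with 3 libraries per genotype. The WT libraries came from females of age 16, in a unit that the labels do not give. The Samhd1 KO libraries (genotype SAMHD1_KO) came from females of age 19, 18 and 16. The Samhd1 Cardif dKO libraries (SAMHD1_Cardif_dKO) lack Samhd1 and Cardif, and came from 1 male of age 18 (replicate 1) and females of age 18 and 16. The Samhd1 Sting dKO libraries (SAMHD1_Sting_dKO) lack Samhd1 and Sting, and came from females of age 24, 16 and 18. All groups but WT therefore carry the Samhd1 deletion, and the study holds no Cardif or Sting deletion with intact Samhd1. The title of the study places MDA5, cGAS and STING downstream of the loss of SAMHD1, so Samhd1 KO against WT asks what the loss changes and each double knockout asks what changes when a sensing pathway is also removed. The groups are called KO, Cardif dKO and Sting dKO from here on.

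Schlafen genes are found in mammals, and many of them are switched on by type I interferon, the cytokine that cells release on sensing foreign or misplaced nucleic acid. The mouse proteins fall into 3 size classes that share an N-terminal core: short (Slfn1 and Slfn2), intermediate (Slfn3 and Slfn4) and long (Slfn5, Slfn8 and Slfn9), of which the long ones carry a C-terminal part resembling a helicase. SAMHD1 breaks down deoxynucleotides and restrains innate immune sensing, Cardif (gene Mavs) relays signals from RIG-I and MDA5, which sense RNA, and STING (gene Tmem173) relays those from cGAS, which senses DNA.

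The 7 genes lie in 1 cluster on chromosome 11, in the order Slfn5, Slfn9, Slfn8, Slfn2, Slfn1, Slfn4 and Slfn3 in the GRCm38.p6 annotation. There Slfn14, another gene of the cluster, follows Slfn3. Slfn14 was not among the 15721 genes, so it was not followed. Their upstream sequences are shown because a searched interferon-type element was found in the long class only, and because most members moved with interferon genes in the results. Upstream sequences from RefSeq (GRCm38.p6) were matched for all 7 genes. The 250 bases before each start were searched on both strands for GAAA repeated after any 2 bases, a core form of the element bound by interferon-activated factors, and for TTCNNNGAA, the form bound by STAT dimers. The first was found in Slfn5, Slfn8 and Slfn9, the long class, and in 2.98% of 32851 upstream windows in the genome. The second was in none of the 7 and in 7.02% of the windows. The longest run of letters common to the short and intermediate members, Slfn1, Slfn2, Slfn3 and Slfn4, was ACTTCCTGG, a choice made after the letters were seen; it was in 0.700% of the windows. The run was picked as common to Slfn1, Slfn2, Slfn3 and Slfn4, so its presence in them is by choice. These are matches of letters in this window only, and binding was not measured. Each line is the gene's strand, 5′ to 3′, with the matched letters in capitals. In Slfn8 and Slfn9 the capitals are the reverse complement of the searched letters.
Slfn1, chr11:83116721-83116779, plus strand: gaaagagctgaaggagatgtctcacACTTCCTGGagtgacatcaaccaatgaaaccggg
Slfn2, chr11:83065032-83065090, plus strand: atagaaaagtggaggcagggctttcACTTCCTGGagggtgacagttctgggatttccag
Slfn3, chr11:83191263-83191321, plus strand: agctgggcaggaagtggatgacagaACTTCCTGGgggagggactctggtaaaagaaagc
Slfn4, chr11:83175088-83175146, plus strand: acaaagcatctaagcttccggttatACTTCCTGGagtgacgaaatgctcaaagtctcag
Slfn5, chr11:82951922-82951981, plus strand: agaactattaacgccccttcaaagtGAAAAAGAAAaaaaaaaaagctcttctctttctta
Slfn8, chr11:83020824-83020883, minus strand: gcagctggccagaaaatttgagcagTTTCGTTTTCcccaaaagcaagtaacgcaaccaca
Slfn9, chr11:82991841-82991900, minus strand: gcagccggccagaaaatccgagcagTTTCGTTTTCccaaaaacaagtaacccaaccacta
The shared run began 74 bases before the start of Slfn1, 73 before that of Slfn4, 55 before that of Slfn2 and 42 before that of Slfn3. The interferon-type letters began 155 bases before the start of Slfn5, 48 before that of Slfn8 and 45 before that of Slfn9. Slfn8 has another annotated start, from which the same letters lie 136 bases upstream. The printed stretches of Slfn8 and Slfn9 carried the same letter at 44 of 60 positions, compared without gaps, and both hold the same 10 letters in capitals. Their 2 matches should thus not be counted as independent, and the match in Slfn5 runs on into a stretch of A. In Slfn1 and Slfn4 the letters just after the shared run are also the same, so these copies should not be counted as independent either.

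Depth ran from 18884021 to 32204657 reads a library, with 15238 to 15470 genes detected. Samhd1, the targeted gene, was read 10113 to 11525 times after normalization in WT, 5555 to 7816 times in KO, 2952 to 4307 times in Cardif dKO and 3196 to 4563 times in Sting dKO. It was thus lower in every knockout library, but its transcript was still read. Mavs was at 509 to 525 normalized reads in Cardif dKO and at 768 to 1008 elsewhere. Tmem173 was at 538 to 577 in Sting dKO, at 481 to 548 in WT and at 696 to 768 in KO, so its level does not check the Sting label. All 12 markers on a list for large peritoneal macrophages were read in every library, among them Gata6 (3134 to 4414 normalized reads). Markers of other cells were also read. The sum over B cell markers (11 of 12 in the table) was 2037 to 2709 normalized reads in WT, 1503 to 2007 in KO, 1687 to 2312 in Cardif dKO and 3400 to 5591 in Sting dKO. The mast cell sum (6 of 7 in the table) was 85.0 to 263 in WT, 7.23 to 9.89 in KO, 37.1 to 62.5 in Cardif dKO and 35.8 to 521 in Sting dKO. In bulk RNA, fewer cells of a type and less RNA per cell cannot be told apart. Nothing in the labels says how many mice gave each library, so p-values measure the spread between libraries.

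Per kilobase of transcript, Slfn4 was the most abundant of the 7 Schlafen members in every group and Slfn9 the least. In WT macrophages Slfn4 stood at 5039 ± 829 normalized reads per kilobase (SD, n = 3), which placed it at rank 204 of 15721 genes. Slfn2 followed at 1941 ± 244, then Slfn1 at 663 ± 128, Slfn5 at 503 ± 144 and Slfn8 at 367 ± 66.1 per kilobase. Slfn3 was at 98.5 ± 20.0 and Slfn9 at 46.4 ± 28.5 per kilobase. The order of the 7 means was the same in all 4 groups. In WT the libraries of Slfn1 and Slfn5 overlapped, as did those of Slfn5 and Slfn8, and no other neighbours in the order did. In KO, Slfn3 (130.0 ± 19.6 per kilobase) and Slfn9 (124 ± 51.5) were the only overlapping neighbours. In Cardif dKO, Slfn5 overlapped Slfn8, and Slfn3 overlapped Slfn9. In Sting dKO, Slfn4 (2794 ± 745 per kilobase) overlapped Slfn2 (2026 ± 326), and no other neighbours did.

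**Figure D1:**
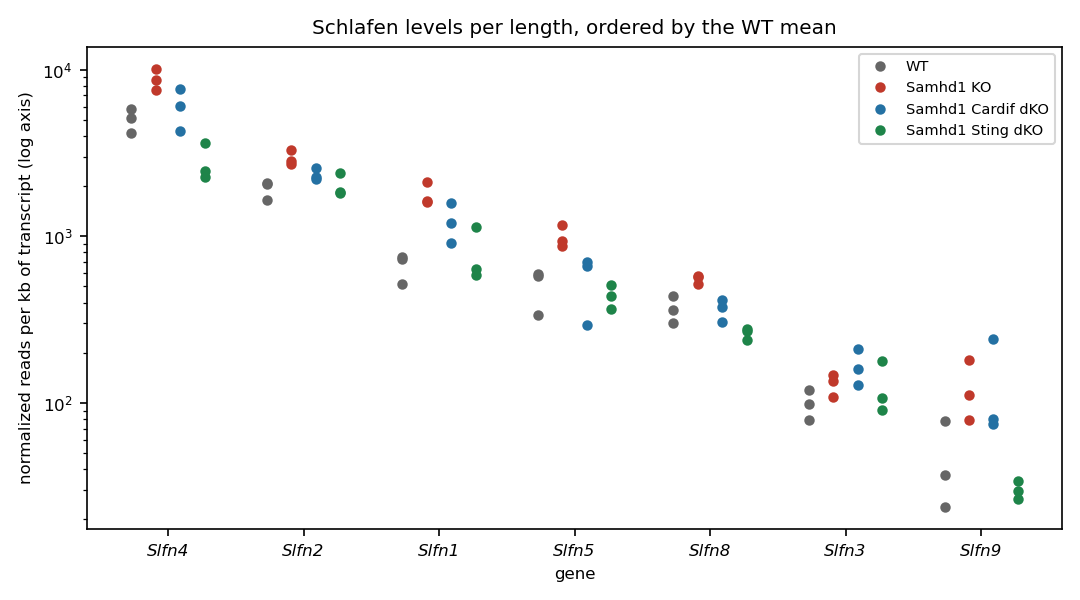
Normalized reads per kilobase of transcript on a log axis for the 7 Schlafen genes, ordered by the WT mean, with 1 point per library and a colour per genotype (3 libraries each). Slfn4 lies highest, at a mean of 5039 in WT and 8782 in KO, and Slfn9 lowest, at 46.4 in WT; the points of Slfn4 and Slfn2 meet in Sting dKO.

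The make-up of the family's RNA had a lower share of Slfn4 in Sting dKO. The per-kilobase sum over the 7 genes was 8658 ± 1332 in WT, 15316 ± 1857 in KO, 10762 ± 2308 in Cardif dKO and 6459.5 ± 1479.7 in Sting dKO (SD, n = 3 each). Slfn4 made up 58.1% of this sum in WT, 57.2% in KO and 55.1% in Cardif dKO. In Sting dKO it made up 43.0%, between 41.2% and 44.7% in single libraries, below every library of the other groups. Slfn2 took 31.7% of the sum there, against 22.5% in WT, 19.3% in KO and 22.1% in Cardif dKO. These shares are descriptions and were not tested.

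Slfn1 and Slfn2, the short members, were both higher in KO than in WT and lower again in Sting dKO. Slfn1 (ENSMUSG00000078763), which restrains the growth of thymocytes when overexpressed, had 1391, 961 and 1355 normalized reads in the WT libraries, 2982, 3945 and 3046 in KO, 1691, 2946 and 2229.7 in Cardif dKO, and 1191, 2106 and 1086 in Sting dKO. Every KO library lay above every other library, the nearest being Cardif dKO replicate 2. Slfn1 rose 2.70-fold in KO against WT (log2 change 1.43, SE 0.256, limma adjusted p = 0.0105) and was called in all 26 alternative analyses. Slfn2 (ENSMUSG00000072620), which keeps T cells and monocytes quiescent and alive, had 3429, 2763 and 3497 normalized reads in WT, 4732, 5475 and 4513 in KO, 3651, 4247 and 3752 in Cardif dKO, and 3078, 3998 and 3039 in Sting dKO. Here too the KO libraries lay above all others, but the step was smaller: Slfn2 rose 1.52-fold against WT (log2 change 0.61, SE 0.126, limma adjusted p = 0.021). The call was lost without WT replicate 2 or KO replicate 2, with a highest adjusted p of 0.0772 over all alternatives.

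Slfn3 and Slfn4, the intermediate members, are neighbours in the cluster and had opposite places in the family: Slfn4 carried the most reads, and Slfn3 was the member with no called change in any comparison. Slfn3 (ENSMUSG00000018986), known in the rat for a part in the differentiation of gut epithelium, had 143, 216 and 178 normalized reads in WT, 197, 266 and 245 in KO, 381, 289 and 234 in Cardif dKO, and 195, 324 and 165 in Sting dKO. The groups overlapped, except that the Cardif dKO libraries all lay above WT. Slfn3 differed between KO and WT by a log2 change of 0.41, with a 95% interval of -0.15 to 0.96 (limma adjusted p = 0.42). Slfn4 (ENSMUSG00000000204), a gene of myeloid cells that inflammatory stimuli induce in macrophages, had 23321, 16702 and 20564 normalized reads in WT, 34808, 40504 and 30279.7 in KO, 17241.5, 30568 and 24187 in Cardif dKO, and 9875, 14615 and 9102 in Sting dKO. The Sting dKO libraries lay below all libraries of the other groups. All 3 KO values exceeded the WT values, and 1 Cardif dKO library lay just above the lowest of them. Slfn4 was 1.75-fold higher in KO than in WT, which missed the threshold (log2 change 0.80, SE 0.221, limma adjusted p = 0.0639). Transcripts of Slfn3 and Slfn4 share sequence: 7.39% of 50-base runs of Slfn3 occur in Slfn4 and 6.28% of those of Slfn4 in Slfn3, so reads there could have been split between them.

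Slfn5, Slfn8 and Slfn9, the long members, all had their KO libraries above their WT libraries. Slfn5 (ENSMUSG00000054404), whose human counterpart is induced by interferon and restrains viral transcription, had 2627, 1492 and 2565 normalized reads in WT, 5168, 3868 and 4177 in KO, 1295, 3084 and 2917 in Cardif dKO, and 1628, 2244 and 1944 in Sting dKO. Every KO library lay above every other library. Slfn5 was 2.02-fold higher in KO than in WT, which missed the threshold (log2 change 1.02, SE 0.303, limma adjusted p = 0.084). Slfn8 (ENSMUSG00000035208), a long member with the helicase-like part, had 1781, 1241 and 1487 normalized reads in WT, 2329.9, 2364 and 2104 in KO, 1259, 1534 and 1694 in Cardif dKO, and 979.6, 1107 and 1131 in Sting dKO. Its libraries were the tightest of the 3 long members in KO, all above every other library, and Sting dKO lay below every other library. Slfn8 rose 1.52-fold in KO against WT (log2 change 0.61, SE 0.134, limma adjusted p = 0.0276). This call was lost without WT replicate 2, WT replicate 3 or any 1 of the KO libraries (highest adjusted p 0.0942).

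Slfn9 (ENSMUSG00000069793), the neighbour of Slfn8 with a similar upstream sequence, varied more within WT, KO and Cardif dKO than any other member, by the ratio of the highest to the lowest library. It had 175, 370.4 and 112 normalized reads in WT, 376, 853 and 529 in KO, 1138, 380.3 and 355 in Cardif dKO, and 162, 141 and 125 in Sting dKO. The highest library was Cardif dKO replicate 1, the male, and WT replicate 2 came close to the lowest KO library. Within WT the highest value was 3.31 times the lowest, and within KO 2.27 times. Slfn9 was 2.85-fold higher in KO than in WT, which missed the threshold (log2 change 1.51, SE 0.481, limma adjusted p = 0.104). Of its 50-base runs 11.2% occur in another Schlafen transcript, and of those of Slfn8 14.6%, mostly in Slfn10-ps, a pseudogene of the cluster. Slfn10-ps itself had 24.8 to 77.3 normalized reads, and the assignment of reads in shared stretches is not stated, so the levels of these genes are uncertain to that extent.

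**Figure D2:**
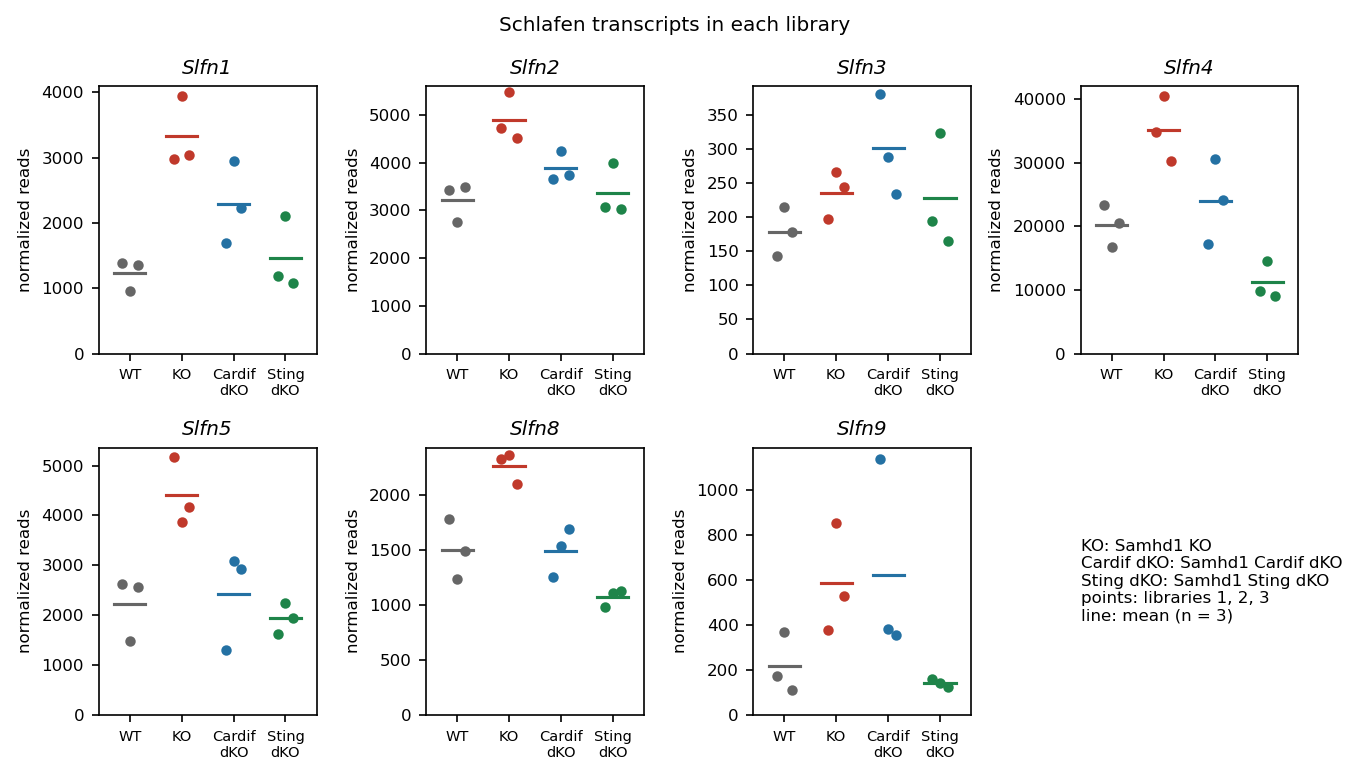
Normalized reads of each Schlafen gene on linear axes that start at 0, with 1 point per library and a line at the mean of each genotype (n = 3). In Slfn1, Slfn2, Slfn5 and Slfn8 every KO point lies above all others; Slfn4 is lowest in Sting dKO (mean 11197), and Slfn9 has its highest point, 1138, in 1 Cardif dKO library.

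In KO against WT, all 7 members had a higher mean in the knockout, and 3 of them, Slfn1, Slfn2 and Slfn8, passed the test, against 2.71% of 13231 tested genes called higher. In 6 of the 7, all but Slfn3, every KO library lay above every WT library, against 13.8% of all tested genes. The median log2 change was 0.80 over the members and 0.0044 over all tested genes. Beside them, a list of interferon response genes had 35 of 47 tested genes called higher and none lower, with a median of 0.82. The interferon genes with the lowest adjusted p were Ifi44 (log2 change 4.33, limma adjusted p = 0.00259), Lgals3bp, a secreted galectin ligand (0.81), Oas3, which makes an RNA-decay signal on binding double-stranded RNA (1.91), and Znfx1, a helicase that senses RNA (0.87), each with the same adjusted p. The count of members rests on single libraries: it was 1 when WT replicate 2 or KO replicate 2 was left out, and 6 without Cardif dKO replicate 1, the single male library. A sex covariate takes out that same library and also gave 6, so sex and this library cannot be told apart. With the cell cycle level of each library as a covariate, described further on, it was 5. All tested genes called higher numbered 358 in the main fit, 169 without WT replicate 2 and 158 without KO replicate 2. They numbered 379 without Cardif dKO replicate 1 and 305 with the cell cycle covariate. Markers of monocytes, small macrophages and dendritic cells moved with this comparison: 3 of 8 tested were called higher in KO and 1 lower (median log2 change 1.02), and the sum over the 10 listed was 8436 to 10257 normalized reads in KO and 5300 to 6039 in WT. Of 5 tested mast cell markers, 3 were called lower (median -3.39). Their part in the Schlafen result was not tested.

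In Sting dKO against KO, 6 of the 7 members fell, against 2.89% of tested genes called lower. The exception was Slfn3. Slfn9 fell by 1.96 on the log2 scale (limma adjusted p = 0.0355), Slfn4 by 1.67 (0.00152), Slfn1 by 1.24 (0.0158), Slfn5 by 1.18 (0.0423), Slfn8 by 1.08 (0.00106) and Slfn2 by 0.55 (0.0269). In the same 6, every Sting dKO library lay below every KO library, against 12.9% of all tested genes. Slfn3 changed by -0.10 with a 95% interval of -0.66 to 0.45 (limma adjusted p = 0.861). The median over the members was -1.19, against -0.0019 over all tested genes and -1.29 over the interferon list, of which 42 of 47 genes were called lower and none higher. Slfn4 and Slfn8 were called in all 26 alternatives, with log2 changes between -1.91 and -1.54 for Slfn4 and between -1.28 and -1.02 for Slfn8. The others were less firm: the count was 2 without KO replicate 2, Sting dKO replicate 1 or Sting dKO replicate 3, and 3 with age as a covariate. All tested genes called lower numbered 383 in the main fit. They numbered 219 without KO replicate 2, 288 and 280 without Sting dKO replicates 1 and 3, and 305 with age. B cell markers moved with this comparison, 9 of 11 tested being called higher in Sting dKO, and 4 of 5 tested mast cell markers were higher as well. Their part in the Schlafen result was not tested.

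Against WT, the Sting dKO libraries differed in 1 member. Slfn4 fell to 0.547 of its WT level (log2 change -0.87, SE 0.221, limma adjusted p = 0.0372), against 2.93% of tested genes called lower. Its Sting dKO libraries all lay below WT, as did those of Slfn8, against 13.9% of all tested genes. Slfn8 missed the threshold (log2 change -0.47, limma adjusted p = 0.0572). Slfn1, Slfn2, Slfn3, Slfn5 and Slfn9 had log2 changes of 0.20, 0.06, 0.30, -0.17 and -0.45 with overlapping libraries. The 95% interval was -0.22 to 0.33 for Slfn2 and -0.36 to 0.75 for Slfn1. In the interferon list 7 of 47 genes were called lower and none higher, with a median of -0.40. The call of Slfn4 was lost without any 1 of the WT libraries, without Sting dKO replicate 1 or 3, and with age as a covariate (log2 change -0.76, limma adjusted p = 0.152). B cell markers were higher here too, 6 of 11 tested being called. This comparison shares its Sting dKO libraries with the preceding one and its WT libraries with the first, so the values are not independent of theirs.

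**Figure D3:**
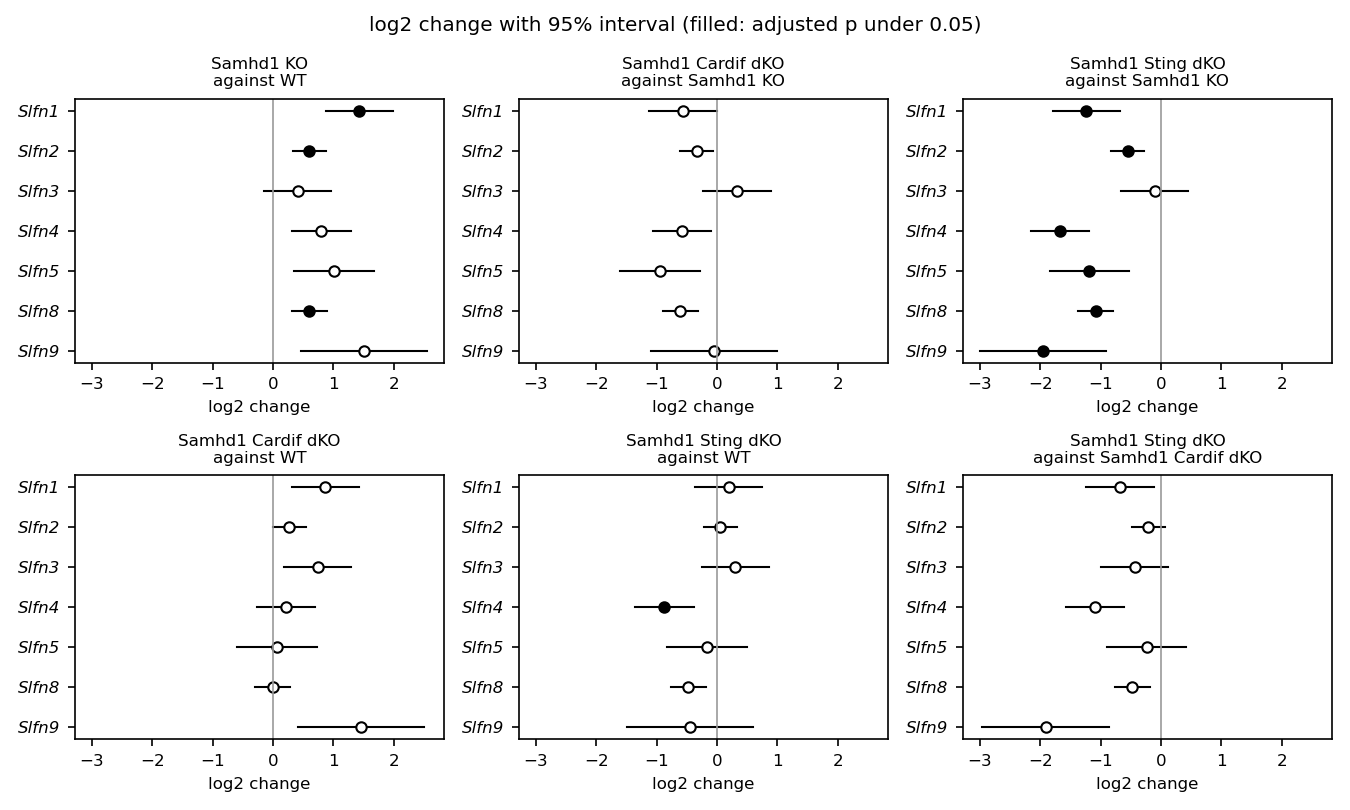
Log2 changes of the 7 Schlafen genes in the 6 comparisons, with 95% intervals from the limma fit to all 12 libraries; filled circles have an adjusted p under 0.05. Filled circles are Slfn1, Slfn2 and Slfn8 in KO against WT, 6 members in Sting dKO against KO, and Slfn4 in Sting dKO against WT.

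In Cardif dKO against KO, no member passed the test, against 0.144% of tested genes called lower and 0 higher. At an unadjusted p under 0.05 there were 5 members, and edgeR called 0 and DESeq2 called 1, Slfn8 (log2 change -0.60, adjusted p = 0.00406). That p threshold was a wide one: Slfn1, at an unadjusted limma p of 0.0484, ranked 1167 of 13231 tested genes by p. DESeq2 called 171 of all tested genes lower, and edgeR called 20. In Slfn1, Slfn2, Slfn5 and Slfn8 every Cardif dKO library lay below every KO library, against 7.34% of all tested genes. Their log2 changes were -0.56, -0.34, -0.95 and -0.61, and that of Slfn4 was -0.58 with overlap in 1 library. Slfn3 and Slfn9 had values of 0.33 and -0.05. The interval of Slfn9, -1.09 to 1.00, spans a change in either direction, and without Cardif dKO replicate 1, the male library, its log2 change was -0.59. Of the interferon list, 6 of 47 genes were called lower, with a median of -0.75.

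In Cardif dKO against WT, no member passed the test, against 0.348% of tested genes called higher. At an unadjusted p under 0.05 there were 3 members, edgeR called 0 and DESeq2 called 1, Slfn1 (log2 change 0.89, adjusted p = 0.0165). Slfn2, at an unadjusted limma p of 0.0525, ranked 1978 of 13231 tested genes by p. DESeq2 called 208 of all tested genes higher, and edgeR called 47. In Slfn1, Slfn2 and Slfn3 every Cardif dKO library lay above every WT library, against 9.85% of all tested genes. These were the short members and Slfn3, with log2 changes of 0.87, 0.27 and 0.74 (limma adjusted p = 0.142, 0.351 and 0.203). Slfn4, Slfn5 and Slfn8 had log2 changes of 0.22, 0.07 and -0.0024, and their 95% intervals were -0.26 to 0.71, -0.59 to 0.73 and -0.29 to 0.29. Slfn9 had a log2 change of 1.46 with overlapping libraries (limma adjusted p = 0.186). None of the 47 interferon genes was called in limma, and DESeq2 called 2.

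The double knockouts were also compared directly. All 7 members had lower means in Sting dKO than in Cardif dKO, and none passed the test, against 0.0907% of tested genes called lower. At an unadjusted p under 0.05 there were 4 members, and edgeR called 0, against 12 of all tested genes called lower by edgeR. That p threshold was again a wide one: Slfn1, at an unadjusted limma p of 0.0217, ranked 1232 of 13231 tested genes by p. DESeq2 called 257 of all tested genes lower and 3 of the members: Slfn4 (adjusted p = 0.000108), Slfn8 (0.0359) and Slfn9 (0.0164). In these 3 every Sting dKO library lay below every Cardif dKO library, against 9.91% of all tested genes. The largest fitted differences were those of Slfn9 (log2 change -1.91, limma adjusted p = 0.118) and Slfn4 (-1.09, 0.0722). In the authors' deposited table Slfn4 has a Sting dKO to Cardif dKO ratio of 0.467 and an adjusted p of 0.00539. In the authors' deposited table the adjusted p is 0.111 for Slfn8 and 0.331 for Slfn9, and 0.451 or higher for the other 4 members.

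Genes just outside the cluster were not called. Nle1, Rad51l3 and Rffl lie on the Slfn5 side and Ap2b1 and Mmp28 on the Slfn3 side, and none of these 5 was called in any of the 6 comparisons. In KO against WT their log2 changes were -0.18, 0.09, 0.25, -0.08 and 0.35, of which Rffl had the lowest limma adjusted p, 0.0606. In Sting dKO against KO they were 0.56, -0.26, -0.03, 0.02 and 0.09, with Nle1 lowest at 0.117. Most genes were not called: of 13231 tested, 358 were higher and 214 lower in KO against WT. In Sting dKO against KO, 366 were higher and 383 lower. The lack of calls in these 5 genes therefore does not mark an edge of the change.

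The members also differed in which other genes followed the same pattern over the 12 libraries. Likeness was measured as the root mean square difference between log2 values centred on each gene's own mean, over 10991 genes with a mean of at least 50 normalized reads. Nearest to Slfn8 were Parp12 (0.106), Parp14 (0.118), both ADP-ribosyltransferases, and Trim30a (0.1199), while the median gene was at 0.446. Nearest to Slfn2 were Trex1, the exonuclease that clears cytosolic DNA (0.0848), Atrip, whose locus overlaps that of Trex1 (0.0959), and Tor3a (0.126). Nearest to Slfn4 were Oas1g, of the oligoadenylate synthetase family (0.155), Pyhin1, of the family of interferon-inducible DNA-binding proteins (0.229), and Lgals3bp (0.233). Slfn5 was nearest to Parp14 (0.250), D14Ertd668e (0.254) and Xaf1 (0.265), and Slfn1 to Gm1966 (0.287), D14Ertd668e (0.315) and Cmpk2, a mitochondrial nucleotide kinase (0.336). Each of these 13 neighbours was called higher in KO against WT and lower in Sting dKO against KO. Slfn3 was nearest to Gm6382 (0.187), Pdss1, an enzyme of coenzyme Q synthesis (0.2005), and Thoc4, an mRNA export factor (0.206), none of which was called in these 2 comparisons. All neighbours were picked for likeness to a member over these same libraries, so their calls, or lack of them, are no separate evidence.

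Slfn9 was nearest to genes of cell division. Mad2l1, a protein of the spindle checkpoint, was at 0.271 and Kif18a, a mitotic kinesin, at 0.296, against a median gene at 1.06. Among the members, Slfn2 and Slfn8 were the closest pair (0.262), and Slfn9 was the farthest from all others, at 0.853 to 1.124. A list of 20 cell cycle genes, put together after this was seen, had mean log2 values of 7.94, 9.15 and 6.51 in the WT libraries, 7.75, 9.76 and 9.66 in KO, 10.55, 8.22 and 9.11 in Cardif dKO, and 7.48, 7.15 and 6.05 in Sting dKO. None of the 20 genes was called in any comparison, but their median log2 change was 1.38 in KO against WT and -2.37 in Sting dKO against KO. The list was chosen for its likeness to Slfn9 over these same libraries, so its agreement with Slfn9 is no separate evidence. With the list's mean as a covariate, an analysis added after the data were seen, the log2 change of Slfn9 had to shrink, to 0.84 in KO against WT and to -0.73 in Sting dKO against KO, and the latter was no longer called (limma adjusted p = 0.283). This supports nothing about the cell cycle. In the same fit Slfn2 in Sting dKO against KO lost its call (log2 change -0.65, limma adjusted p = 0.0725), while Slfn5 (1.39, 0.00533) and Slfn4 (0.93, 0.0442) passed in KO against WT.

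**Figure D4:**
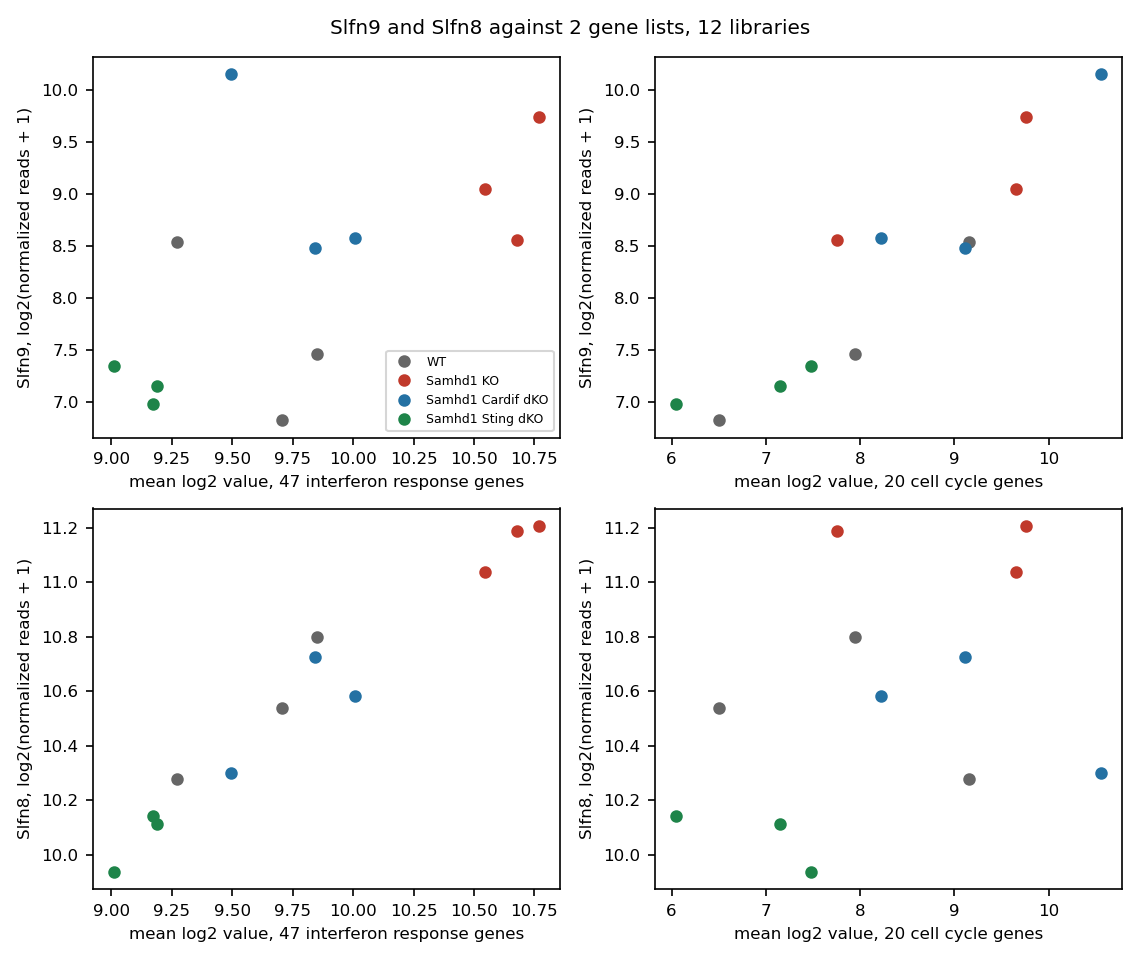
Log2 of normalized reads plus 1 for Slfn9 (upper row) and Slfn8 (lower row) in the 12 libraries, against the mean log2 value of 47 interferon response genes (left) and of 20 cell cycle genes (right). The cell cycle list was chosen for its likeness to Slfn9 over these libraries, so the rise of Slfn9 along that axis is by choice; Cardif dKO replicate 1 has the highest cell cycle mean, 10.55.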

How the data were processed

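RNA was sequenced from 12 libraries of sorted mouse peritoneal macrophages, 3 in each of 4 genotypes. Per the file headers, genes and transcript lengths follow Ensembl 61 on mm9. Tools named in the submitters' processing notes are bedtools 2.16.2 and DESeq 1.6.1; the sources used here do not give the aligner. The deposited signal values are the authors' normalized reads, scaled by a constant for each library. All of them (100%) were integer multiples of a library-specific step, the worth of 1 read, at a tolerance of 1e-04 reads, and this gave back whole reads for tests on counts. For Cardif dKO replicate 2 the step was 1.00, near unscaled reads. The authors' deposited table also holds fold values, which are the ratio of the Samhd1 Sting dKO mean to the Samhd1 Cardif dKO mean, the log2 of that ratio, and a p-value and adjusted p-value, all computed by the authors. All 15721 genes had a read in a double knockout library, so genes without such a read are not analysed here.

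Values were log2(normalized reads + 1), which understates changes of low genes. The filter asked for 10 or more normalized reads in 3 or more libraries; it left 13231 genes, the 7 Schlafen genes among them. limma 3.58.1 (R 4.3.3, trended prior) was run on the 12 libraries together, with genotype means and 8 residual degrees of freedom. P-values were adjusted by Benjamini-Hochberg within each of 6 comparisons, and those under 0.05 were called. The SE of a log2 change was 0.135 for the median gene. edgeR 4.0.16, DESeq2 1.42.0, limma-voom, other pseudocounts, filters, normalization, covariates and left-out libraries were tried as alternatives. In simulated Samhd1 KO and WT libraries of 13224 genes, 35.4% of genes changed 1.5-fold, 68.7% changed 2-fold and 90.9% changed 4-fold were called, and 6 of 135 calls were on unchanged genes. The simulation changed 65, 67 and 66 genes at these sizes, fewer in all than were called in the data. Its percentages are therefore not the power of the real comparisons. Replicates of a genotype differed far beyond counting noise (chi-square per gene 12.3 to 46.8), so no library appeared to be deposited a second time within its genotype. Libraries of different genotypes were not compared in this way.

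The members, the gene lists and the tests were chosen with earlier results of these data known, and the cell cycle list and the run of 9 letters after their values or letters were seen. Other genes were named by rule: the 3 genes most like each member, the 4 interferon genes with the lowest adjusted p in Samhd1 KO against WT, and the 3 nearest tested genes on each side of the cluster. The values of some genes taken by this rule are not reported here. Upstream sequences are from RefSeq on GRCm38.p6, which is not the build of the files, so no coordinate was carried between them. Shared 50-base runs were counted between GENCODE M21 transcripts.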

Additional observations from a re-analysis of the deposited data

How the results depend on the processing

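The direction of every called Schlafen change held in all alternatives. With libraries left out 1 at a time, the members called ranged from 1 to 6 in KO against WT, from 2 to 6 in Sting dKO against KO, from 0 to 2 in Sting dKO against WT, and stayed at 0 in the other 3 comparisons. All tested genes called higher in KO against WT then ranged from 128 to 382. Those called lower ranged from 219 to 458 in Sting dKO against KO and from 155 to 404 in Sting dKO against WT. The interferon list then gave 21 to 38 calls in KO against WT, 0 to 14 in Cardif dKO against KO, 0 to 1 in Cardif dKO against WT, 4 to 14 in Sting dKO against WT and 0 to 9 in Sting dKO against Cardif dKO. In KO against WT, 5 members were called with only the 2 groups in the fit, 6 with sex (which takes out the 1 male library) and 5 with the cell cycle covariate. All tested genes called higher numbered 358 in the main fit and 321 with only the 2 groups. With sex they numbered 379, and with the cell cycle covariate 305. Age left 3 in Sting dKO against KO. For Sting dKO against WT, 2 were called by DESeq2, with sex or with the cell cycle covariate, and 0 with age. All tested genes called lower in that comparison numbered 388 in the main fit and 613 with DESeq2. They numbered 401 with sex, 385 with the cell cycle covariate and 212 with age. DESeq2 called 1 member in Cardif dKO against KO, 1 in Cardif dKO against WT and 3 in Sting dKO against Cardif dKO. Over all tested genes it called 171 lower, 208 higher and 257 lower in these comparisons. For the interferon list in Cardif dKO against KO (6 calls), DESeq2 gave 33, TMM factors 3, the filter of 5 CPM 3, 2 groups 0, sex 0, age 1 and the cell cycle covariate 24. The list in Sting dKO against WT (7 calls) had 14 with DESeq2, 11 with sex, 3 with age and 15 with the cell cycle covariate. Between the double knockouts (6 calls) DESeq2 gave 17, limma-voom 2, 2 groups 0, sex 2 and age 0, and in Cardif dKO against WT (0) DESeq2 gave 2. The cause of these shifts was not tested. With the replicate number as a block, the interferon calls were 0 in Cardif dKO against KO and 1 in Sting dKO against Cardif dKO, and Slfn5 in Sting dKO against KO was no longer called (limma adjusted p = 0.0631). Same-numbered libraries did not deviate together as a set, only 7 of 18 pairs having a correlation over 0.1 (range -0.427 to 0.369). With deviations taken from means of 3 libraries, this cannot show whether the number marks a pairing. Uncalled changes changed sign as follows. Slfn9 in Cardif dKO against KO was 0.10 in both edgeR fits and 0.094 in DESeq2, and -0.59 to 0.26 with libraries left out. Slfn3 in Sting dKO against KO was 0.28 with the cell cycle covariate and -0.39 to 0.10 with libraries left out. Slfn8 in Cardif dKO against WT was 0.12 with sex, 0.029 with age, 0.13 with the cell cycle covariate and -0.13 to 0.13 with libraries left out. Slfn5 was -0.20 to 0.47 in Cardif dKO against WT with libraries left out, and 0.011 with age in Sting dKO against WT. In Sting dKO against WT with libraries left out, Slfn1 was -0.10 to 0.38, Slfn2 -0.071 to 0.13 and Slfn9 -0.84 to 0.017, and Slfn9 was 0.10 with the cell cycle covariate. Interferon-list alternatives and the cell cycle covariate were added after seeing the data. In the simulated KO and WT libraries, 35.4% of 1.5-fold changes were called, with fewer genes changed than were called in the data. How often changes of this size were missed in the real comparisons was therefore not measured.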
